A study of Mus musculus with 19 samples.

Results

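The NR4A, EGR and NFAT genes described here are 9 genes that T cells switch on or put to use after their antigen receptor is engaged: Nr4a1, Nr4a2, Nr4a3, Egr1, Egr2, Egr3, Nfatc1, Nfatc2 and Nfatc3. They were listed by symbol and family, with earlier results of these data known, and each is represented by the probe set with the highest mean over the 19 arrays among those annotated with its symbol alone. All 9 passed the filter on low values, among 9930 genes that did, although Nr4a2 reached log2 4 on only 9 of the 19 arrays. The arrays measured RNA of sorted CD4+ T cells of the strain C57BL/6J; the labels give no ages. The transferred OT-II cells (T cells of a transgenic line whose receptor recognises ovalbumin) carried a Bcl6yfp/+ allele that reports BCL6 as YFP and were transferred to congenic mice immunized subcutaneously with NP-OVA in CFA. Draining lymph nodes gave CXCR5hi PD-1hi cells sorted by YFP, as YFP-positive (n = 4, at day 7 on 3 arrays and day 10 on 1) or YFP-negative (n = 4, at day 7 on 2 and day 10 on 2), and CXCR5lo PD-1lo cells (n = 3, day 7). CXCR5hi PD-1hi cells were also compared by genotype, Bcl6yfp/+ (n = 3, day 7) against Bcl6+/+ (n = 3, at day 7 on 1 array and day 10 on 2). CXCR5hi PD-1hi cells are called follicular helper T (Tfh) cells below. Spleens of mice without immunization supplied naive CD4+ CD44lo CD62Lhi cells (n = 2). The description of the transfer is the same for every sample and may not hold for the naive or the Bcl6+/+ cells, and the labels leave it unsaid whether animals were pooled and whether replicate arrays had separate donors. The p-values therefore cover the spread between arrays, part or all of which may be technical.

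Engagement of the T cell receptor raises cytosolic calcium, which activates the phosphatase calcineurin. Calcineurin dephosphorylates the NFAT proteins, which then enter the nucleus and, often together with AP-1 (Fos and Jun proteins), switch on activation genes. Nfatc1 has a short inducible isoform made from its own NFAT-responsive promoter, whereas Nfatc2 and Nfatc3 are present before activation. Egr1, Egr2 and Egr3 encode zinc finger factors induced within minutes to hours through the MAP kinase and calcium pathways, and Egr2 and Egr3 are known for supporting Tfh differentiation as well as for restraining T cell activation. Nr4a1, Nr4a2 and Nr4a3 encode orphan nuclear receptors that are immediate early genes of receptor signalling, so that Nr4a1 and Nr4a3 are widely used as reporters of recent antigen contact, and they restrain effector and exhausted T cell programmes.

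The promoters of the 3 NR4A genes are shown because these genes are induced by one signal and yet differed from each other across the arrays, and that of Egr2 for comparison with them. Each window covers the 250 bases before a start site annotated by RefSeq on GRCm38.p6. Windows matched by symbol are described for 6 of the 9 genes, 12 windows in all. Egr1 and Nfatc1 were left out of this description, so their motifs are not compared here, and no window was found for Egr3. The Egr2 window is the first of a set of 3 that overlap. Capitals mark TGACG, the half-site of the cAMP response element bound by CREB and ATF proteins, or CGTCA, the same on the other strand, and a CArG box (the site of serum response factor), a MEF2 site or the EGR motif GCGGGGGCG on either strand.
Nr4a1 (chr15:101266596-101266845, plus strand): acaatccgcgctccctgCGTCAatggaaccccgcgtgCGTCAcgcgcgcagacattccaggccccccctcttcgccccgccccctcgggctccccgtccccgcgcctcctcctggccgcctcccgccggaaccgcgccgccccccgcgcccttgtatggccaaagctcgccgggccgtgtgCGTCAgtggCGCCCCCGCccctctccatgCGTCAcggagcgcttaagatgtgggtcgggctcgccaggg
Nr4a2 (chr2:57124004-57124253, minus strand): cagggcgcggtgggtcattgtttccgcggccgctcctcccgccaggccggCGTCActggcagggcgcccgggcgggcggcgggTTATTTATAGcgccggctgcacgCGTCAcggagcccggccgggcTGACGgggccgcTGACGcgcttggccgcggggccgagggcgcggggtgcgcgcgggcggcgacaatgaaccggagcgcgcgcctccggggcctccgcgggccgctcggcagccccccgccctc
Nr4a3 (chr4:48045055-48045304, plus strand): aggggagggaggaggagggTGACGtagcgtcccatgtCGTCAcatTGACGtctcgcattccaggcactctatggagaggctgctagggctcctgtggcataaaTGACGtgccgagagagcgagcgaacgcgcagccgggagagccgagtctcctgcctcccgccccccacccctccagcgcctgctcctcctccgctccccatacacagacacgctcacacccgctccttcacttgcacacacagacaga
Egr2 (chr10:67537619-67537868, plus strand): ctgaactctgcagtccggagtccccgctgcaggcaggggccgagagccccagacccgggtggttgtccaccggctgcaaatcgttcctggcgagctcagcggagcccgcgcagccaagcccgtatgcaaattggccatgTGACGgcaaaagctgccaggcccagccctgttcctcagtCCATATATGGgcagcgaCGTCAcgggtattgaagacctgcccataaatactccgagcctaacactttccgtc
Each NR4A window held 4 half-sites, a number reached by 45 of all 32851 windows (0.137%), while 17.8% of windows held at least 1. The Egr2 window held 2 half-sites and a CArG box, which 1.47% of all windows hold. The EGR motif stood in the Nr4a1 window, as in 2.57% of windows, and the MEF2 site in the Nr4a2 window, as in 2.92%. The NFAT core GGAAA, which is not capitalised, is held by 55.6% of all windows and was found once in the Nr4a2 and Egr2 windows shown and not in those of Nr4a1 and Nr4a3. The windows of Nfatc2 and Nfatc3 held at most 1 TGACG. A match describes the letters of a window only.

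The values are log2 expression values on the GCRMA scale, whose floor lies near 2 (lowest value 1.64), so that a difference from a group near the floor depends on it. The 19 arrays did not share 1 distribution and fell into 7 sets of like distribution. These are called normalization sets below, a name drawn from the values alone. The labels do not say which arrays were normalized together. Sets 1, 2 and 3 held replicates 1, 2 and 3 of CXCR5lo PD-1lo cells and of both YFP groups. Set 4 held replicate 4 of both YFP groups with naive replicate 1, set 5 Bcl6yfp/+ replicate 1 with naive replicate 2, set 6 replicates 2 and 3 of both genotypes, and set 7 Bcl6+/+ replicate 1. Array medians ran from 2.40 to 2.99, and the number of arrays limits the precision. T cell markers were high in every group. The summed level of 5 Tfh markers was 15.39 to 16.45 (log2) on the Tfh arrays and 12.90 to 13.98 on CXCR5lo PD-1lo arrays. On naive arrays it was 11.47 to 11.56. Among the 5 are Cxcr5 and Pdcd1, whose proteins were used to sort the cells, so the sum is not an independent check of their identity. Of 6 B cell markers measured, Cd79a, Ms4a1, Pax5 and Blnk stayed at 3.10 or below on every array. Jchain, a plasma cell gene, reached 12.42 on 1 YFP-negative array and 7.72 to 10.53 on the CXCR5lo PD-1lo arrays, where Cd79b was at 5.26 to 5.36. Jchain also reached 8.45 in YFP-positive and 7.54 in Bcl6yfp/+ cells. Of 8 myeloid markers Csf1r, Itgam, Cd14 and Adgre1 were at 2.28 or below on every array and Cst3 was at 11.62 to 13.61, while Lyz2 reached 10.98 on 1 YFP-negative array, 6.76 in CXCR5lo PD-1lo and 6.73 in YFP-positive cells. In such bulk samples a smaller share of cells that express a gene and less RNA per cell cannot be told apart.

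**Figure D1:**
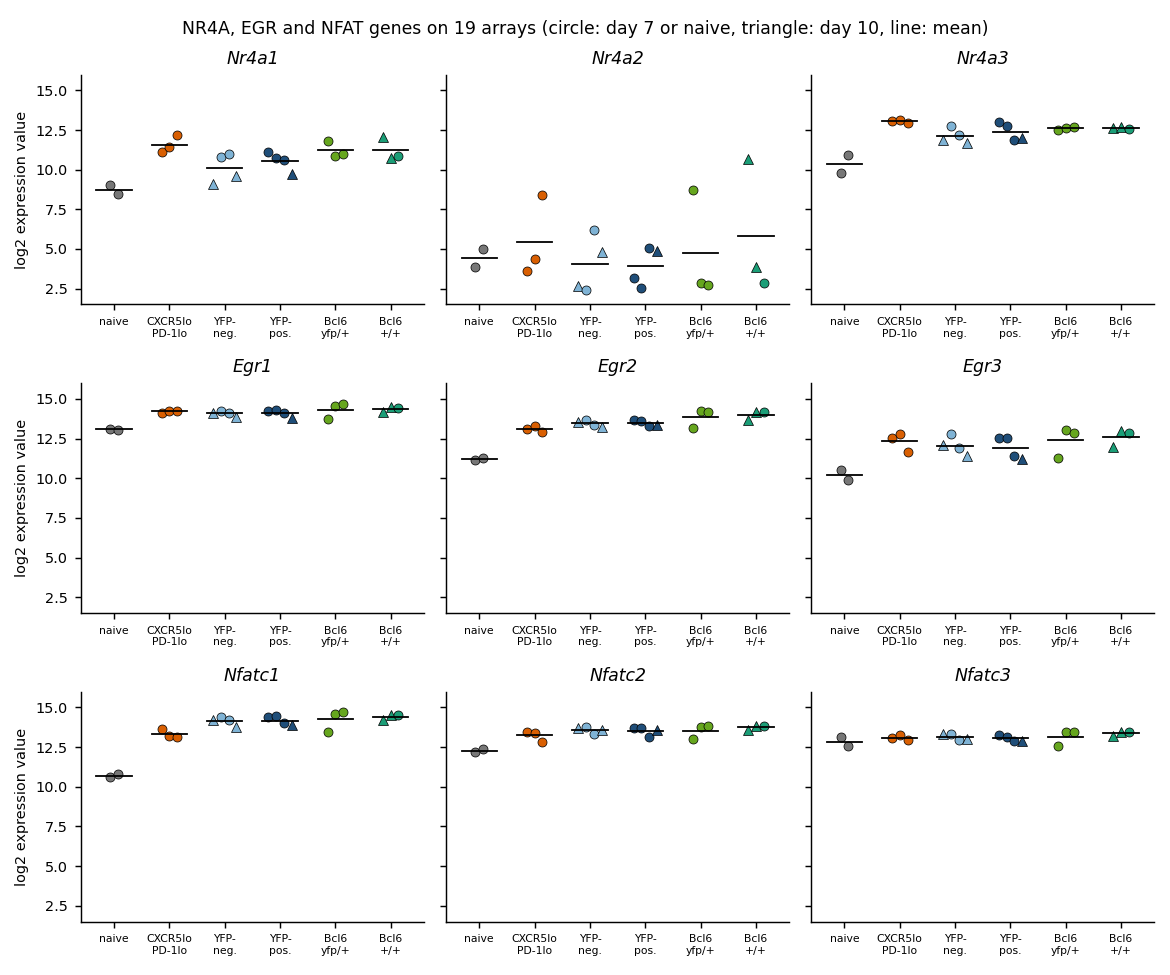
Log2 expression value (vertical axis) of each of the 9 genes in 6 groups (horizontal axis); each point is 1 array, circles are day 7 or naive cells, triangles day 10, and lines group means. Both naive arrays lie below all others for 7 genes, while Nr4a2 is spread from 2.42 to 10.65 and Nfatc3 is nearly level, from 12.56 to 13.45.

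Nr4a1 (probe set 1416505_at, chr15:101253902-101274795) was lowest in naive cells and highest in CXCR5lo PD-1lo cells. Its log2 levels were 9.01 and 8.49 in naive cells and 11.13, 11.42 and 12.16 in CXCR5lo PD-1lo cells. YFP-positive arrays stood at 11.12, 10.76, 10.58 and 9.70, and YFP-negative arrays at 9.10, 10.77, 10.98 and 9.60. Bcl6yfp/+ cells had 11.82, 10.87 and 10.99, and Bcl6+/+ cells 12.07, 10.75 and 10.84. Every immunized array was above both naive arrays, the closest being a YFP-negative array at 9.10, while each pair of neighbouring immunized groups overlapped. Against naive cells Nr4a1 was 7.05-fold higher in CXCR5lo PD-1lo cells (log2 difference 2.82, SE 0.58, adjusted p = 0.0039, limma), 3.46-fold higher in YFP-positive cells (1.79, SE 0.55, adjusted p = 0.022) and 5.55-fold higher in the mean of the genotype groups (2.47, SE 0.51, adjusted p = 0.0018). The difference of 1.36 in YFP-negative cells (SE 0.55) did not pass (adjusted p = 0.09). The YFP-positive call was lost after quantile normalization (1.28, adjusted p = 0.13), with the normalization set (defined above) as a block (0.85, adjusted p = 0.28), and without YFP-positive replicate 1 or one or the other naive array (adjusted p up to 0.18). The CXCR5lo PD-1lo call was lost with the set as a block (1.65, adjusted p = 0.11) and without naive replicate 2 (adjusted p = 0.06), and the YFP-negative difference passed without YFP-negative replicate 1. Replicate 1 in both genotypes held the highest Nr4a1 of its group.

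Nr4a3 (1438796_at, chr4:48045078-48086447) followed a similar order, with CXCR5lo PD-1lo cells on top. It was at 9.80 and 10.92 in naive cells and at 13.08, 13.11 and 12.94 in CXCR5lo PD-1lo cells. YFP-positive arrays read 12.98, 12.75, 11.90 and 12, YFP-negative arrays 11.87, 12.73, 12.17 and 11.69, and the genotype groups 12.52 to 12.71. The genotype groups were tight, with an SD of 0.09 for Bcl6yfp/+ and 0.06 for Bcl6+/+ (n = 3 each), whereas the YFP groups had SDs of 0.54 and 0.46 (n = 4 each). Nr4a3 rose over naive cells in all comparisons with them: 6.44-fold in CXCR5lo PD-1lo cells (2.69, SE 0.37, adjusted p = 0.00011), 4.14-fold in YFP-positive (2.05, SE 0.35, adjusted p = 0.00037), 3.38-fold in YFP-negative (1.76, SE 0.35, adjusted p = 0.0017) and 4.8-fold in the genotype groups (2.26, SE 0.33, adjusted p = 7.9e-05). Of these calls only that of YFP-negative cells was lost when an array was left out, naive replicate 1 (adjusted p = 0.065).

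Nr4a2 (1455034_at, chr2:57106830-57124003) behaved unlike the other NR4A genes. It read 10.65 on replicate 1 of Bcl6+/+ and 8.74 on replicate 1 of Bcl6yfp/+, against 2.70 to 3.86 on the other 4 genotype arrays, and 8.40 on CXCR5lo PD-1lo replicate 3, against 3.62 and 4.39 on the other two. YFP-positive arrays read 3.16, 2.52, 5.07 and 4.87, YFP-negative arrays 2.68, 2.42, 6.19 and 4.84, and naive arrays 3.88 and 4.97. High arrays thus occurred in several groups, within-group SDs reached 4.24, and no pair of groups neighbouring in mean was separate. No comparison with naive cells passed in the fit without a block (log2 differences from -0.52 to 1.04, SE 1.91 to 2.14). With the normalization set as a block the fitted differences from naive cells were 2.77 in CXCR5lo PD-1lo and 4.06 in genotype cells. Each of these rests on 1 naive array. Genotype cells share only set 5 with naive cells. CXCR5lo PD-1lo cells share no set with naive cells and are linked to them through naive replicate 1 in set 4.

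The spread of Nr4a2 followed the normalization sets. At its second probe set, 1447863_s_at, 7 arrays were at 6.26 or above and the other 12 at 2.97 or below. The 7 were replicate 3 in CXCR5lo PD-1lo (9.50), in YFP-negative (7.17) and in YFP-positive cells (6.26), replicate 4 of the YFP-positive (7.29) and YFP-negative groups (7.02), and replicate 1 of Bcl6yfp/+ (10.10) and Bcl6+/+ (9.53). They make up sets 3 and 7 and the immunized arrays of sets 4 and 5, whose naive arrays were at 2.67 and 2.42. Another probe set, 1450750_a_at, was at 3.06 to 8.57 on these 7 arrays and at 2.35 or below on the others. Fosb, an AP-1 subunit and immediate early gene, was likewise at 8.47 to 11.17 on those 7 arrays, though also at 9.38 on CXCR5lo PD-1lo replicate 2 and 6.37 and 6.79 on its set 2 partners, and at 2.08 to 4.37 elsewhere. Over the 19 arrays Nr4a2 correlated with Maff, a small MAF factor, at Pearson r = 0.94, with Fosb at 0.72 and with Junb at 0.66. Values were lower for Nr4a1 (0.45, and 0.58 over the 17 immunized arrays), Fos (0.23), Nr4a3 (0.03) and Egr1 (-0.22). These are descriptions over arrays that share sets. What the arrays of a set shared beyond a like distribution is not in the labels, and its part in the Nr4a2 level was not tested.

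**Figure D2:**
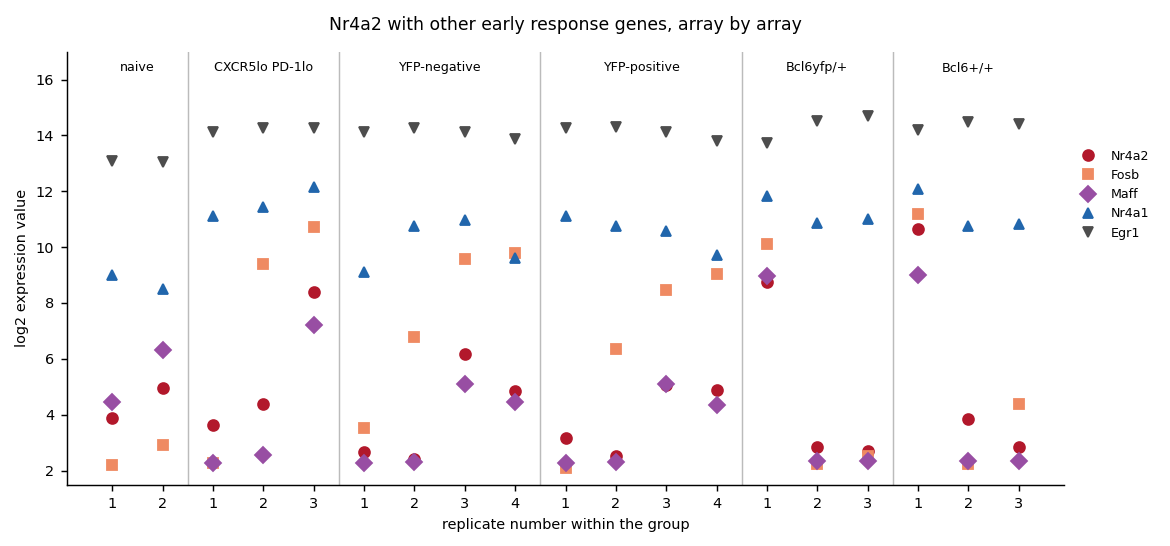
Log2 expression value (vertical axis) of Nr4a2, Fosb, Maff, Nr4a1 and Egr1 on each of the 19 arrays (horizontal axis, replicate number within a group); each point is 1 array. Nr4a2, Fosb and Maff are high together on replicate 1 of both Bcl6 genotypes (Nr4a2 8.74 and 10.65) and on CXCR5lo PD-1lo replicate 3 (8.40), where Egr1 stays between 13.74 and 14.27.

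The EGR genes were higher in every immunized group than in naive cells. Egr1 (1417065_at, chr18:34861207-34864956) was at 13.09 and 13.06 in naive cells. It was between 13.74 and 14.68 on all 17 immunized arrays. Its group means ran only from 14.09 in YFP-negative to 14.36 in Bcl6+/+ cells. It rose 2.02-fold to 2.41-fold over naive cells (log2 1.02 to 1.27, adjusted p from 0.0083 to 0.00066). Without one or the other naive array it was not called in CXCR5lo PD-1lo (adjusted p up to 0.069) or YFP-negative cells (adjusted p up to 0.066).

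Egr2 (1427682_a_at, chr10:67534469-67542188) showed the clearest step of the EGR genes. Naive arrays were at 11.14 and 11.25, CXCR5lo PD-1lo arrays had a lowest value of 12.90 and a highest of 13.32, YFP-positive arrays 13.27 to 13.68 and YFP-negative arrays 13.26 to 13.68. Bcl6yfp/+ arrays spanned 13.18 to 14.26 and Bcl6+/+ arrays 13.67 to 14.15. The CXCR5lo PD-1lo arrays (mean 13.11) thus lay below those of Bcl6+/+ cells (mean 13.99) without overlap. These groups share no normalization set and were not tested against each other, and how many of all genes stand apart likewise was not counted. The rise over naive cells was 3.77-fold in CXCR5lo PD-1lo cells (1.92, SE 0.30, adjusted p = 0.00034), 4.83-fold in YFP-positive (2.27, SE 0.28, adjusted p = 1.4e-05), 4.8-fold in YFP-negative (2.26, SE 0.28, adjusted p = 1.6e-05) and 6.66-fold in the genotype groups (2.74, SE 0.27, adjusted p = 7.8e-07). A second probe set, 1427683_at, gave differences of 2.86 to 3.37 in the same direction. Egr3 (1436329_at, chr14:70077317-70082613) was noisier, at 10.54 and 9.87 in naive cells and from 11.22 to 13.06 on immunized arrays, and rose by log2 1.71 to 2.30 (adjusted p from 0.029 to 0.0032). Its calls rested on single arrays, being kept in 1 of 5 fits with an array left out for CXCR5lo PD-1lo, 2 of 6 for YFP-positive, 3 of 6 for YFP-negative and 7 of 8 for genotype cells. Each was lost without naive replicate 2 (the 3 first also without naive replicate 1), with adjusted p up to 0.24. In both genotypes replicate 1 held the lowest value of Egr1, Egr2 and Egr3, the arrays on which Nr4a2 and Nr4a1 were highest.

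Nfatc1 (1417621_at, chr18:80606205-80713071) had the largest difference from naive cells among the 9 genes in both YFP groups and in the genotype groups. Naive arrays were at 10.60 and 10.79 and CXCR5lo PD-1lo arrays at 13.62, 13.21 and 13.13. YFP-positive arrays ran from 13.88 to 14.45, YFP-negative from 13.79 to 14.37, Bcl6yfp/+ from 13.47 to 14.70 and Bcl6+/+ from 14.20 to 14.53. The CXCR5lo PD-1lo arrays lay between the naive arrays and those of both YFP groups without overlap, although 1 Bcl6yfp/+ array (13.47) fell within their range. Nfatc1 rose 6.15-fold over naive cells in CXCR5lo PD-1lo cells (2.62, SE 0.33, adjusted p = 3.5e-05). It rose 11.1-fold in YFP-positive cells (3.48, SE 0.31, adjusted p = 3.2e-07), 10.9-fold in YFP-negative cells (3.44, SE 0.31, adjusted p = 4.1e-07) and 12.4-fold in the genotype groups (3.63, SE 0.29, adjusted p = 9.1e-08).

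Nfatc2 (1439205_at, chr2:168476410-168601657) was at 12.16 and 12.36 in naive cells and from 12.85 to 13.84 on immunized arrays, and rose by log2 0.97 to 1.38 (adjusted p from 0.031 to 0.0005). In CXCR5lo PD-1lo cells it was called in 1 of 5 fits with an array left out and lost without one or the other naive array or without CXCR5lo PD-1lo replicate 1 or 2 (adjusted p up to 0.15). Nfatc3 (1419976_s_at, chr8:106058818-106130537) was at 13.14 and 12.56 in naive cells and from 12.56 to 13.45 elsewhere. Its differences of 0.20 to 0.41 (SE 0.25 to 0.28) did not pass in any comparison with naive cells, and their 95% intervals reached from -0.35 to 0.93. Without Bcl6yfp/+ replicate 1 the genotype groups passed (0.55, adjusted p = 0.024). Every pair of groups neighbouring in mean overlapped for Nfatc3. After quantile normalization its differences turned to between -0.22 and -0.11, also not called.

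**Figure D3:**
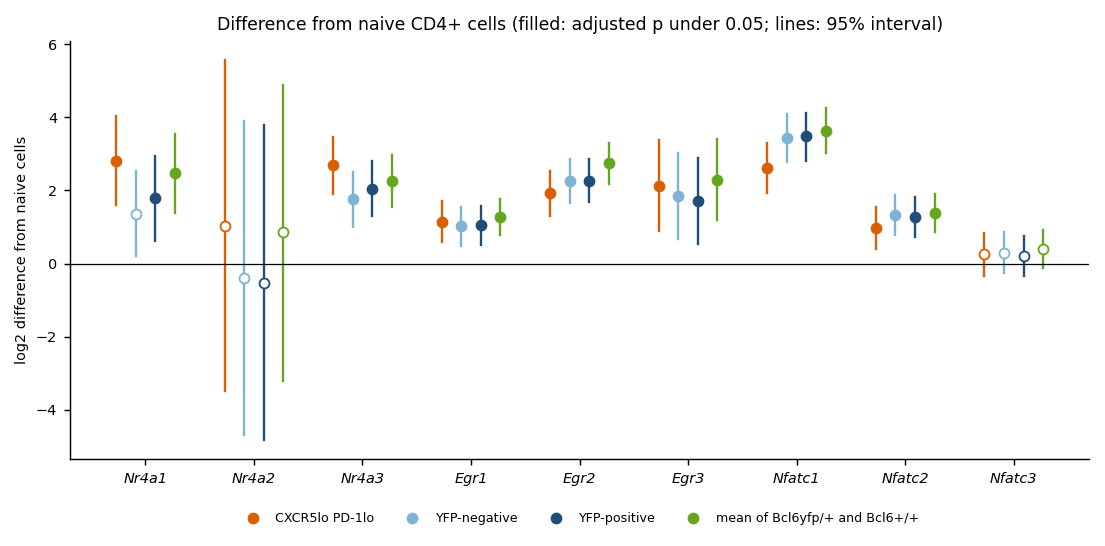
Log2 difference from naive cells (vertical axis) of the 9 genes (horizontal axis) in 4 comparisons; points are fitted differences, lines 95% intervals, and filled points have an adjusted p under 0.05. The 7 genes other than Nr4a2 and Nfatc3 are filled throughout except Nr4a1 in YFP-negative cells (1.36), and Nfatc1 is lower in CXCR5lo PD-1lo cells (2.62) than in the others (3.44 to 3.63).

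By count, 7 of 9 genes were called higher than naive in CXCR5lo PD-1lo cells (10.4% of all genes were), 7 in YFP-positive cells (22.4%), 6 in YFP-negative cells (16.5%) and 7 in the genotype groups (28.4%), and 0 lower. The arrays of the 7 genes other than Nr4a2 and Nfatc3 stood wholly above both naive arrays in each comparison, as did those of 48% of all genes in CXCR5lo PD-1lo, 38.3% in YFP-positive, 37% in YFP-negative and 25.6% in genotype cells. These comparisons share the same naive arrays. The median difference of the 9 genes was 1.92, 1.71, 1.36 and 2.26, beside 0.46, 0.39, 0.38 and 0.50 for all genes. In the fit without a block the naive arrays thus sat below the rest as a whole, and 77.6% to 86.8% of calls were higher. With the normalization set as a block all-gene medians were -0.00 to 0.03, so that this shift was not seen there. After quantile normalization 45.1% to 59.3% of calls were higher, and all-gene medians were -0.08 to 0.07. With that scaling all differences of the 7 genes stayed positive, Nfatc1 at 2.10 to 3.03 and Egr2 at 1.39 to 2.10, but Nr4a1 in YFP-positive cells and Nfatc2 in CXCR5lo PD-1lo cells (0.48, adjusted p = 0.084) were no longer called. Within set 4 the YFP-positive minus naive difference was 3.28 for Nfatc1, 2.20 for Nr4a3, 2.19 for Egr2, 0.71 for Egr1, 0.69 for Nr4a1 and 0.68 for Egr3. Within set 5, which holds the other naive array, Bcl6yfp/+ replicate 1 stood above it by 3.77 for Nr4a2, 3.33 for Nr4a1, 2.68 for Nfatc1, 1.93 for Egr2, 1.60 for Nr4a3 and 1.41 for Egr3. Between these single pairs of arrays, which come from different groups, Nr4a1 and Nr4a2 (0.98 in set 4) differed most. Without naive replicate 1 the calls fell to 4 in CXCR5lo PD-1lo and 3 in YFP-negative cells, and without naive replicate 2 to 3 in CXCR5lo PD-1lo cells. Tissue and immunization cannot be told apart here. The summed level of a list of 7 stress and handling genes, Fos and Jun among them, was 13.63 to 15.12 on naive arrays and 15.47 to 16.15 on all others. Y-linked Eif2s3y was at 2.15 on one naive array and 12.89 on the other. The part of these in the differences was not tested.

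Between Tfh and CXCR5lo PD-1lo cells the fitted differences of the 9 genes had no common sign. Those of Nfatc1, Egr2 and Nfatc2 were above 0 and those of the NR4A genes below it, but 0 of 9 genes passed in either YFP group in the fit without a block, in which 10.6% of all genes were called for YFP-positive and 6.53% for YFP-negative cells (limma; at an unadjusted p under 0.05, 2 and 3 of the 9 genes). The differences of YFP-positive and YFP-negative cells, which share the CXCR5lo PD-1lo arrays, were 0.86 and 0.82 for Nfatc1 (adjusted p = 0.057 and 0.096), -1.03 and -1.46 for Nr4a1 (0.23 and 0.093) and -0.64 and -0.93 for Nr4a3 (0.25 and 0.097). Nfatc1 arrays did not overlap in either comparison, nor did Nr4a1 arrays, nor Nr4a3 arrays for YFP-negative cells. In all genes, 8.75% stood apart as higher and 14.1% as lower for YFP-positive cells, and 7.48% and 11.2% for YFP-negative cells. Single arrays decided some calls. Nfatc1 passed for YFP-positive cells without YFP-positive replicate 4 or without CXCR5lo PD-1lo replicate 1, and for YFP-negative cells Nr4a1 passed without YFP-negative replicate 3 and Nr4a3 without YFP-negative replicate 2. After quantile normalization Nfatc1 (0.93 and 0.90) and Egr2 (0.42 in both) were called in YFP-positive and YFP-negative cells. These were 2 of 9 genes beside 19.7% and 12.4% of all genes, near the share for YFP-positive cells.

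A fit with the replicate number as a block sets like-numbered arrays, which here also share a normalization set, against each other. In it 4 of 9 genes were called in each YFP group, beside 37.2% of all genes for YFP-positive and 24% for YFP-negative cells. For YFP-positive cells the count was near the all-gene share. Nfatc1 was higher by 0.96 (SE 0.13, adjusted p = 0.002) in YFP-positive and 0.93 (SE 0.13, adjusted p = 0.0033) in YFP-negative cells. Egr2 was higher by 0.41 (SE 0.08, adjusted p = 0.008) and 0.40 (SE 0.08, adjusted p = 0.012), and Nfatc2 by 0.29 (SE 0.07, adjusted p = 0.019) and 0.34 (SE 0.07, adjusted p = 0.015). Nr4a2 differed by -1.86 (SE 0.45, adjusted p = 0.019) and -1.74 (SE 0.45, adjusted p = 0.033). On replicates 1, 2 and 3 it was at 3.62, 4.39 and 8.40 in CXCR5lo PD-1lo cells. YFP-positive cells had 3.16, 2.52 and 5.07 and YFP-negative cells 2.68, 2.42 and 6.19, near the floor in sets 1 and 2. At its probe set 1447863_s_at these arrays were at 2.17 to 2.97 in sets 1 and 2 and at 6.26 to 9.50 in set 3. Within sets 1, 2 and 3 the Nfatc1 difference of YFP-positive cells was 0.75, 1.24 and 0.87 and that of YFP-negative cells 0.58, 1.16 and 1.07. Nr4a1 of YFP-positive cells was at -0.01, -0.66 and -1.58 and of YFP-negative cells at -2.03, -0.65 and -1.18, so that its size varied from set to set and it was not called with this block (adjusted p = 0.18 and 0.08). When the normalization set was the block, the same 4 genes were called in YFP-positive cells, a count again near the all-gene share (44.7%). In YFP-negative cells 6 were, Nr4a1 (-1.23, adjusted p = 0.035) and Nr4a3 (-0.79, adjusted p = 0.024) in addition, beside 30.5%. The largest of these within-set differences of YFP-negative cells, in set 1 (Nr4a1 -2.03, Nr4a3 -1.21), join a day 10 array with Y-linked Eif2s3y at 13.28 to a day 7 array with it at 2.32. In sets 2 and 3, where both arrays are of day 7 and Eif2s3y is at 2.22 to 2.35, Nr4a1 differed by -0.65 and -1.18 and Nr4a3 by -0.38 and -0.77. With day as a covariate and no block, Nr4a1 of YFP-negative cells differed by -1.05 (adjusted p = 0.36) and Nr4a3 by -0.72 (adjusted p = 0.23). The part of the cells' sex was not tested. Egr1 and Nfatc3 differed by at most 0.14 in either fit. Jchain and Cd79b were higher on the CXCR5lo PD-1lo arrays, as given above, and their part in these differences was not tested.

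**Figure D4:**
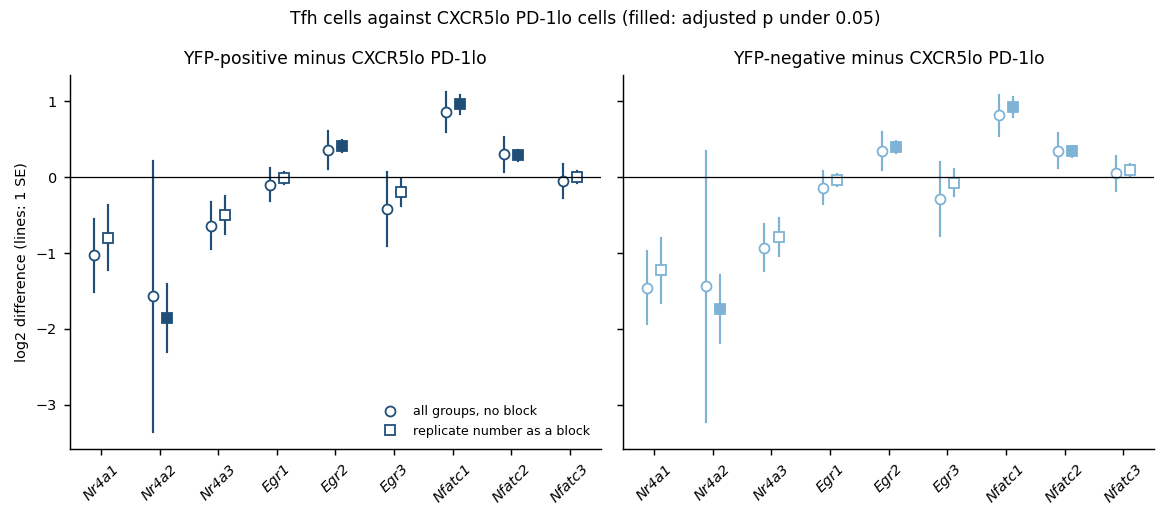
Log2 difference from CXCR5lo PD-1lo cells (vertical axis) of the 9 genes (horizontal axis) in YFP-positive (left) and YFP-negative cells (right); circles are the fit of all groups and squares the fit with the replicate number as a block, lines are 1 SE and filled points have an adjusted p under 0.05. Only squares are filled, for Nr4a2 below 0 (-1.86 and -1.74) and for Egr2, Nfatc1 and Nfatc2 above 0.

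Other probe sets of Nfatc1 gave larger differences. These were 3 of the other 4, 1425761_a_at, 1447084_at and 1447085_s_at, called higher in Tfh than in CXCR5lo PD-1lo cells without a block, by 2.18, 2.36 and 2.14 for YFP-positive cells (adjusted p = 0.017, 0.0013 and 0.001) and by 2.16, 1.99 and 1.72 for YFP-negative cells (adjusted p = 0.024, 0.007 and 0.0082). Probe set 1425761_a_at had means of 4.29 in naive, 8.69 in CXCR5lo PD-1lo, 10.85 in YFP-negative and 10.87 in YFP-positive cells. The fifth probe set, 1428479_at, had means of 12.10 in naive, 12.90 in CXCR5lo PD-1lo and 13.08 in YFP-positive cells. It rose over naive cells by 0.99 in YFP-positive, 1.03 in YFP-negative and 0.96 in genotype cells (adjusted p = 0.01, 0.011 and 0.0081), and was not called between Tfh and CXCR5lo PD-1lo cells (0.19 and 0.23, adjusted p = 0.76 and 0.8). Which transcripts of Nfatc1 each probe set detects is not in the files.

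The probe sets of Nfatc2 disagreed in direction. While 1439205_at rose, 1425901_at fell from a naive mean of 6.30 to 2.69 in YFP-positive (-3.61, SE 0.63, adjusted p = 0.00044) and 3.10 in YFP-negative cells (-3.20, SE 0.63, adjusted p = 0.0015), with CXCR5lo PD-1lo cells between at 4.74 (-1.56, SE 0.67, adjusted p = 0.13). The mean of the genotype groups, 2.53, was lower by -3.77 (adjusted p = 0.00017). It was also lower in YFP-positive than in CXCR5lo PD-1lo cells (-2.05, adjusted p = 0.025). One more, 1426031_a_at, went with 1439205_at in 3 comparisons, although its means of 2.73 to 4.95 lay near the floor. It rose over naive cells by 1.38 in CXCR5lo PD-1lo, 1.44 in YFP-negative and 1.17 in YFP-positive cells (adjusted p = 0.019, 0.0057 and 0.017), and differed by -0.75 in genotype cells (adjusted p = 0.079). The 3 other Nfatc2 probe sets did not pass the filter. Direction of change is therefore given for the probe sets named and not for all transcripts of Nfatc2.

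**Figure D5:**
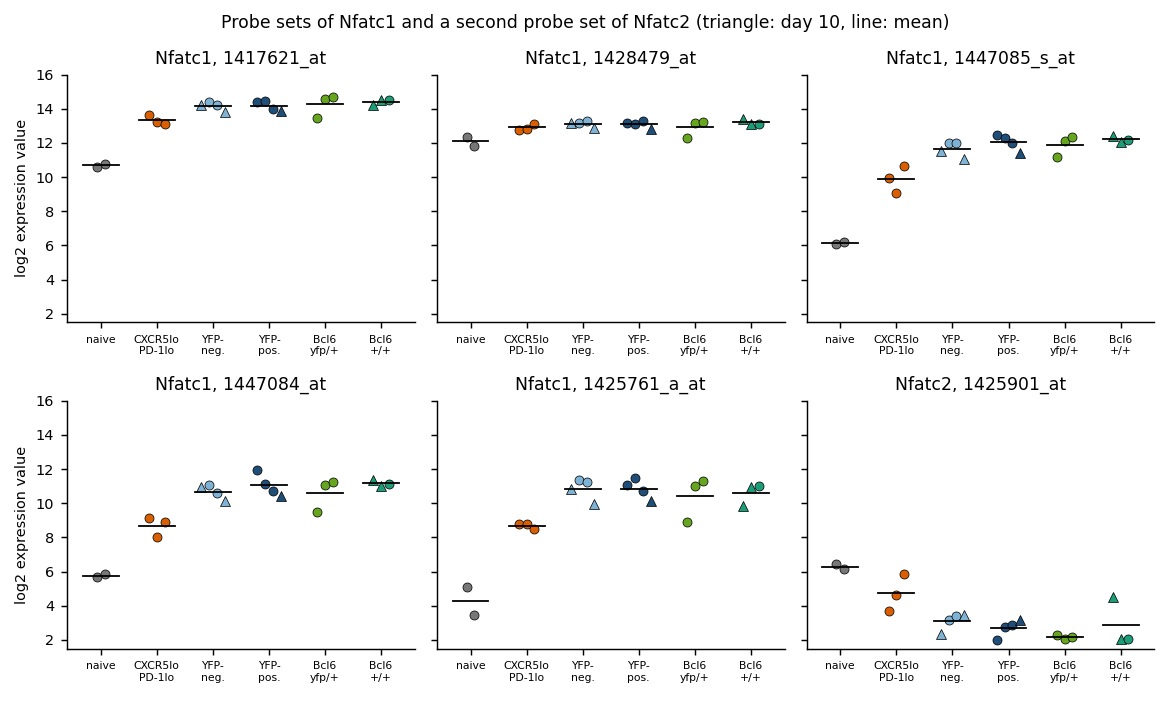
Log2 expression value (vertical axis) of the 5 probe sets of Nfatc1 and of a second probe set of Nfatc2 in 6 groups (horizontal axis); each point is 1 array, triangles are day 10, and lines are group means. The Nfatc1 probe sets other than 1428479_at step up from naive to CXCR5lo PD-1lo to Tfh cells, 1428479_at stays between 11.83 and 13.38, and Nfatc2 1425901_at steps down, from a naive mean of 6.30 to 2.69 in YFP-positive cells.

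YFP-positive and YFP-negative Tfh cells, which differ in the level of the BCL6 reporter, did not differ detectably in these genes. None of the 9 was called (limma, beside 0.121% of all genes; 0 of the 9 at an unadjusted p under 0.05). The differences were 0.04 for Nfatc1 (95% interval -0.50 to 0.57), 0.01 for Egr2 (-0.48 to 0.50), 0.03 for Egr1 (-0.40 to 0.46) and 0.29 for Nr4a3 (-0.32 to 0.90). Nr4a1 had the largest fitted difference of the 9, 0.43 (-0.51 to 1.38), and within the pairs of equal number it was 2.02, -0.01, -0.40 and 0.11. The pair with 2.02 joins a day 7 YFP-positive array to a day 10 YFP-negative one. With the replicate block there were also 0 calls among the 9 genes, beside 2.7% of all genes. Over all genes 4 were called higher and 8 lower, against 9 and 36 with arrays centred on their median gene, 105 and 163 with the replicate block and 828 and 713 (15.5%) when the normalization set was the block, where 0 of the 9 genes were called too.

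Bcl6yfp/+ and Bcl6+/+ cells, which differ in carrying the reporter allele, gave 0 calls among the 9 genes and 0 among all 9930 (limma, with and without the replicate block; 287 of all genes and 0 of the 9 at an unadjusted p under 0.05 without it). Apart from Nr4a2, differences ran from -0.23 for Nfatc3 (95% interval -0.75 to 0.30) to 0.00 for Nr4a1 (-1.09 to 1.09), beside -0.26 for the median gene. Within set 6, which holds replicates 2 and 3 of both genotypes, they ran from -0.05 for Nfatc2 to 0.15 for Egr1, with Nr4a2 at -0.58. All Bcl6yfp/+ arrays are of day 7, while Bcl6+/+ replicates 1 and 2 are of day 10, replicate 2 also within set 6. Genotype and day are thus partly mixed in these differences.

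Day 10 against day 7 could be compared in 3 groups, and 0 of 9 genes were called (limma, beside 0.252% of all genes, 22 higher and 3 lower, or 20 and 6 after quantile normalization, and 0 with centring, with the set as a block and with the replicate block, where 522 to 1288 of all genes had an unadjusted p under 0.05). Nr4a1 was the 1 gene of the 9 at an unadjusted p under 0.05, with -0.82 (SE 0.37, adjusted p = 0.46). Its day 10 arrays of the YFP groups were at 9.70, 9.10 and 9.60. The day 7 arrays were at 10.58 to 11.12 in YFP-positive and 10.77 and 10.98 in YFP-negative cells, without overlap. How many of all genes separate the days likewise was not counted. In Bcl6+/+ cells the day 10 arrays stood at 12.07 and 10.75 and the day 7 array at 10.84. The day effect did not differ between groups after adjustment (interaction over 3 groups, unadjusted p = 0.046, adjusted p = 1.0 for Nr4a1). In the YFP groups the Y-linked Eif2s3y was at 13.21 to 13.28 on the day 10 arrays and at 2.25 to 2.40 on the day 7 arrays, so that day cannot be told apart there from the sex of the cells' source, while all arrays of both genotypes were at 12.99 to 13.84.

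Some of the 9 genes followed each other closely from array to array. Egr2, Nfatc1 and Nfatc2 correlated with each other at Pearson r = 0.94 to 0.97 over all arrays and at 0.81 to 0.86 over the 17 immunized arrays. Over the latter Nfatc3 was as close to Egr3 (0.86), Nfatc2 (0.82), Egr1 and Egr2 (0.81 each), and Egr1 to Egr3 (0.84). Nr4a1 correlated with Nr4a3 at 0.80 and 0.72, but with Nfatc1 at 0.51 and -0.29. By the rule of the highest r over the 19 arrays, the genes most like Nfatc1 were Plekho1, Rab19 and Ppp1r16b (0.99 each). Those most like Egr2 were Lrmp, Tmem185a (0.98 each) and Cd200 (0.97), and those most like Nfatc2 were Akap12 (0.98), Wipf1 and Lax1 (0.97 each). Egr1 was most like Sla, Trim35 (0.97 each) and Csk (0.96), and Egr3 like Sh2b3, Mta2 and Arhgef3 (0.97 each). Nr4a1 was most like Abcc4 (0.88), Crtap (0.84) and Nfkbid (0.82), Nr4a3 like Ahr (0.94), Eloa (0.92) and Cxcr3 (0.91), Nr4a2 like Maff (0.94), 1700109H08Rik (0.91) and Zfp60 (0.90), and Nfatc3 like Vps26a, Esrp2 and Map3k1 (0.97 each). The arrays share groups and normalization sets, so that these values describe this collection.

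Upstream of NFAT, 23 of 32 listed calcium and calcineurin pathway genes were measured above the filter. The clearest change was in Ppp3ca, which encodes the alpha catalytic subunit of calcineurin. It had means of 11.10 ± 0.09 (SD, n = 2) in naive, 8.61 ± 0.45 (n = 3) in CXCR5lo PD-1lo, 4.21 ± 0.78 (n = 4) in YFP-negative and 4.12 ± 1.01 (n = 4) in YFP-positive cells. It fell by 4.49 (SE 0.85, adjusted p = 0.002) in YFP-positive and by 4.40 (SE 0.85, adjusted p = 0.0032) in YFP-negative cells relative to CXCR5lo PD-1lo cells, and relative to naive cells it fell by 6.98 in YFP-positive, fell by 6.89 in YFP-negative and fell by 7.35 in genotype groups (adjusted p = 4.2e-05, 5.8e-05 and 1.3e-05). Its other probe sets had the same order, with means of 9.55 and 9.87 in naive cells, 8.36 and 8.92 in CXCR5lo PD-1lo cells and 2.29 to 2.99 in Tfh groups, near the floor. Of the 6 genotype arrays 1 was apart at 7.47, the others being at 2.85 to 3.36. Ppp3cb, the beta catalytic subunit, stayed at 12.90 to 13.68 on all arrays and Ppp3r1, the regulatory subunit, at 11.31 to 12.42, neither called in any comparison. Ppp3cc, the gamma catalytic subunit, rose over naive cells by 1.21 in YFP-positive, 1.48 in YFP-negative and 1.10 in genotype groups (adjusted p = 0.0012, 0.00025 and 0.0016).

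Among the other genes of this list, Rcan1, a calcineurin inhibitor that NFAT induces, rose in YFP-positive cells by 1.72 over CXCR5lo PD-1lo (SE 0.41, adjusted p = 0.01) and by 1.61 over naive cells (SE 0.46, adjusted p = 0.016). In YFP-negative cells it differed by 1.35 (adjusted p = 0.062) and 1.23 (adjusted p = 0.07). The calcium channel gene Orai3 rose over naive cells by 1.51 in YFP-positive and 1.82 in genotype cells, and also in YFP-negative cells, Orai1 rose by 1.61 in YFP-positive cells (adjusted p = 0.043), and Orai2 fell there by 1.24 (adjusted p = 0.023). In CXCR5lo PD-1lo cells Stim2, a calcium sensor of the endoplasmic reticulum, rose by 0.69 over naive cells and Cabin1, a calcineurin binding protein, by 0.89. Of the 23 genes, 7 were called higher and 3 lower than naive in YFP-positive cells (22.4% and 6.46% of all genes), 5 and 1 in YFP-negative (16.5% and 4.64%), 7 and 1 in genotype (28.4% and 5.92%) and 2 and 0 in CXCR5lo PD-1lo cells (10.4% and 1.58%). These counts were near the all-gene shares, and the list medians of 0.32, 0.40, 0.51 and 0.43 stood beside 0.39, 0.38, 0.50 and 0.46 for all genes. Against CXCR5lo PD-1lo cells 1 was called higher and 2 lower in YFP-positive cells (5.18% and 5.39% of all genes) and 1 and 1 in YFP-negative cells (3.13% and 3.39%).

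Of 19 partners and upstream factors of EGR and NR4A proteins, 16 were measured above the filter. Nab1 and Nab2, co-repressors that bind EGR proteins, both rose. Nab1 rose over naive cells by 1.71 in YFP-positive, 1.75 in YFP-negative (adjusted p = 0.00028 and 0.00027), 1.24 in CXCR5lo PD-1lo and 0.96 in genotype cells, and Nab2 by 1.77 in CXCR5lo PD-1lo and 1.84 in genotype cells (adjusted p = 0.019 and 0.0029), while Nab2 was not called in the YFP groups. Crem, a CREB family factor, rose by 1.72 to 1.97 in the 3 Tfh comparisons. Rxra, a nuclear receptor that pairs with Nr4a1 and Nr4a2, rose by 2.66 over naive cells in CXCR5lo PD-1lo cells (adjusted p = 0.00015), by 1.13 in YFP-positive and by 1.19 in genotype cells. Rxra was at 9.84 to 10.96 in CXCR5lo PD-1lo cells and at 7.99 to 9.29 on all Tfh arrays. Relative to CXCR5lo PD-1lo cells it fell by 1.54 in YFP-positive cells (limma, adjusted p = 0.0042). It also fell in YFP-negative cells, from a mean of 10.27 to 8.27 (limma, adjusted p = 0.00057). Calls higher than naive numbered 5 of 16 in CXCR5lo PD-1lo (10.4% of all genes), 6 in YFP-positive (22.4%), 4 in YFP-negative (16.5%) and 7 in genotype cells (28.4%), with 1 lower, Mef2a, in genotype cells (-0.66, adjusted p = 0.037). The list medians were 0.52 to 0.80, beside 0.38 to 0.50 for all genes.

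Of 37 other genes of the receptor response 35 were measured above the filter, and 19 were called higher than naive in CXCR5lo PD-1lo (10.4% of all genes), 14 in YFP-positive (22.4%), 17 in YFP-negative (16.5%) and 20 in genotype cells (28.4%). List medians were 1.43 to 1.64, beside 0.38 to 0.50 for all genes. Il2ra, Cish and Myc were called lower than naive in the 3 Tfh comparisons, Myc by -2.47 to -1.91. Bhlhe40, a transcription factor gene of activated T cells, rose by 9.46 to 10.11 from a naive level near the floor (mean 2.19). Gadd45b, a stress sensor, rose by 5.63 to 5.88 in the Tfh comparisons and Irf4, whose level tracks receptor signal strength, by 6.17 in CXCR5lo PD-1lo cells and 4.99 to 5.26 in the Tfh comparisons. Il2ra and Cish, targets of IL-2 and STAT5 signalling, went the other way in Tfh cells. Relative to CXCR5lo PD-1lo cells Il2ra fell by 5.15 in YFP-positive and fell by 5.19 in YFP-negative cells, and Cish fell by 5.69 and fell by 5.43. Irf8 rose by 1.56 and 1.15. In all, 1 gene of the 35 was called higher and 8 lower in YFP-positive cells (5.18% and 5.39% of all genes). In YFP-negative cells 1 and 7 were (3.13% and 3.39%). List medians were -0.43 and -0.20 beside -0.07 and -0.09 for all genes.

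Of 16 tolerance and exhaustion genes linked to NFAT, EGR and NR4A factors 14 were measured above the filter, and 8 were called higher than naive in CXCR5lo PD-1lo (10.4% of all genes), 9 in YFP-positive (22.4%), 9 in YFP-negative (16.5%) and 10 in genotype cells (28.4%). List medians were 2.15 to 2.29, beside 0.38 to 0.50 for all genes. Tox2, an HMG box factor of Tfh and exhausted cells, rose by 9.55 in CXCR5lo PD-1lo and 11.25 to 11.53 in Tfh comparisons, and Lag3, an inhibitory receptor, by 7.95 and by 9.10 to 9.63. Ndrg1, which restrains T cell activation, differed by -5.83 to -5.56 in the Tfh comparisons and was the 1 gene called lower than naive there. Against CXCR5lo PD-1lo cells 4 of the 14 were called higher and 3 lower in YFP-positive cells (5.18% and 5.39% of all genes). In YFP-negative cells 4 and 2 were (3.13% and 3.39%). Rnf128, the E3 ligase GRAIL, rose in YFP-positive and YFP-negative cells by 4.58 and 4.85 relative to CXCR5lo PD-1lo cells, and the inhibitory receptor gene Havcr2 fell by 4.25 and fell by 4.26. Pdcd1 rose by 3.30 and 3.25, but PD-1 was used to sort these cells. Between YFP-positive and YFP-negative cells, between the genotypes and between days no gene of the 4 lists was called by limma.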

How the data were processed

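RNA was extracted with TRIzol and amplified with the Nugen Ovation kit before hybridisation, per the labels' protocols. The authors deposited 1 table of log2 expression values for the 19 arrays, made with GCRMA per the submitters' processing notes; no version or setting of it is recorded there. GCRMA adjusts for background, which sets a floor and stretches differences from dim groups. Scanner files were not used here, so background correction could not be repeated.

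Of 45101 probe sets, 64 were controls, 34945 carried 1 gene symbol in the platform annotation (of 2016), 932 several and 9160 none. Probe sets at log2 4 or more on at least 2 arrays were kept (22359). Where a gene had several, the one with the highest mean over the arrays stood for it, leaving 9930 genes; the 9 genes described have 28 probe sets in all. The limma package (version 3.58.1, R 4.3.3) fitted 1 model of 6 groups by lmFit, contrasts.fit and eBayes. Adjusted p-values are Benjamini-Hochberg values over all 9930 genes, and called means a value under 0.05. The day term was fitted on the 17 immunized arrays with the groups. The scripts were tested on simulated data.

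Arrays whose sorted values differed by less than 0.06 were put in 1 of 7 normalization sets; within sets the largest difference was 0.0482 and between sets the smallest was 0.0666. Like-numbered arrays deviated together from their group means (correlations of 0.27 to 0.87 among CXCR5lo PD-1lo cells and both YFP groups, 0.57 to 0.64 between the genotypes), and the number was therefore also used as a block. One naive title carries no number. The alternatives were quantile normalization, the set or the replicate number as a block, other filters, trend and robust eBayes, only the groups compared, day as a covariate, other probe sets, each array left out, centring on the median gene, and replicate 1 of both genotypes left out.

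The members and the gene lists were chosen with earlier results of these data known. From each list, the 2 genes with the highest and the 2 with the lowest difference among those called per comparison were eligible for naming, and others were named beside counts. Likeness was ranked by Pearson r over the 19 arrays. Promoter windows came from RefSeq annotation of GRCm38.p6 and were searched on both strands.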

Additional observations from a re-analysis of the deposited data

How the results depend on the processing

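Calls among the 9 genes against CXCR5lo PD-1lo cells depended most on the processing. For YFP-positive cells the count rose from 0 to 2 after quantile normalization, to 4 with the normalization set as a block, to 4 with the replicate block, and to 1 with each array centred on its median gene, with trend and robust eBayes or with day as a covariate; leaving out 1 array gave 0 to 1. For YFP-negative cells it rose from 0 to 2 after quantile normalization, to 6 with the set as a block and to 4 with the replicate block. It was 2 with centring, 1 with trend and robust eBayes and 0 to 1 with 1 array left out. Calls over all genes rose too. For YFP-positive cells the all-gene share went from 10.6% to 19.7%, 44.7% and 37.2% with quantile normalization, the set block and the replicate block. The share for YFP-negative cells went from 6.53% to 12.4%, 30.5% and 24% in the same order. With centring 895 of 9930 genes were called higher and 814 lower for YFP-positive cells, and 591 and 487 for YFP-negative cells. Against naive cells, the 7 calls of CXCR5lo PD-1lo cells became 4 with only the groups compared in the fit and 3 to 7 with 1 array left out. Leaving out 1 array gave 5 to 7 for YFP-positive and 3 to 7 for YFP-negative cells, the latter 3 without naive replicate 1 and 7 without YFP-negative replicate 1. Between YFP-positive and YFP-negative cells, between the genotypes and between days the count was 0 under each alternative run, so the replicate block changed no other call among the comparisons it could be run for. In 6 cases another probe set of Nfatc2 reversed its direction with a call at either probe set. Of these, 1425901_at gave -2.05 for YFP-positive minus CXCR5lo PD-1lo cells. Against naive cells it gave -1.56, -3.61, -3.20 and -3.77 in CXCR5lo PD-1lo, YFP-positive, YFP-negative and genotype cells. There 1426031_a_at gave -0.75 in genotype cells but rose over naive cells in the other 3 comparisons. Over the counts and the single-gene values together, 1245 alternatives stayed on the same side of the threshold, 38 were weaker, 43 were stronger and 6 reversed. The 6 leave out changes of sign without a call on either side, such as that of Nfatc3 after quantile normalization. Another was Nfatc2 1425901_at in YFP-negative minus CXCR5lo PD-1lo cells (-1.63, against 0.35 at 1439205_at). Centring and leaving out replicate 1 of both genotypes were chosen after seeing the data. The cause of these changes was not tested. Dim probe sets such as those of Nr4a2 are limited by the floor of the scale, and 2 naive arrays limit every comparison with them.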
